A study of Xenopus laevis with 8 samples.

Results

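The genes described here are the T-box and early mesoderm transcription factors of the *Xenopus laevis* embryo: vegt, eomes, t (brachyury, named tbxt in RefSeq), tbx6, msgn1, myf5 and myod1. They were found by their gene symbols, with a final .L or .S removed. X. laevis is an allotetraploid frog, and most of its genes are present as a homeologous pair, a .L copy and an .S copy, that are counted separately. The rule found 13 gene copies of the 49086 genes listed, a .L and an .S copy of each gene except tbx6, of which only tbx6.S was matched. All 13 copies passed the filter on low counts, which kept 25448 genes, but the tbx6, msgn1 and myf5 copies passed it only through the groups in which they were high, tbx6.S through the M/Z groups.

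RNA was sequenced from whole embryos in 8 libraries, with 2 replicate pools of 3 embryos in each of 4 groups. Maternal-zygotic mutants (M/Z) came from eggs of females homozygous for a small deletion in the first exon of wnt11b.L, fertilised with mutant sperm, and were collected at Nieuwkoop and Faber (NF) stages 9 and 10.5. The heterozygous controls (+/Z) came from wild-type eggs fertilised with mutant sperm and were collected at the same stages, so that embryos of both genotypes carried a paternal mutant allele and the maternal allele differed. The strain was the inbred J strain, stage 9 is a late blastula and stage 10.5 a gastrula. The females behind each pool are not named in the sources used here, so the p-values measure the spread between pools, which may be of one clutch. The M/Z and +/Z eggs came from different females. A difference between the genotypes therefore cannot be told apart from a difference between females or clutches.

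T-box proteins bind DNA through a shared domain, and several of them act in sequence as the mesoderm forms. VegT is stored in the egg as a vegetal RNA, activates nodal ligand genes and other endoderm and mesoderm genes, and is transcribed again in the marginal zone of the gastrula. Eomes and brachyury are switched on in the presumptive mesoderm by nodal and FGF signals; brachyury then marks the mesodermal ring and later the notochord and tailbud. Tbx6 and the basic helix-loop-helix factor Msgn1 belong to ventral and paraxial mesoderm, and Myf5 and MyoD are the myogenic helix-loop-helix factors that start the muscle programme. In Xenopus, myod1 RNA is also known to be present at a low level before gastrulation.

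Library totals ranged from 24720921 to 37265579 counts, at which the detection floor of 3 counts was worth 0.0715 to 0.136 CPM (counts scaled to a common library size). CPM rest on the effective library sizes of edgeR and are used here to compare libraries for 1 gene copy, not one gene with another, since they are not corrected for transcript length. The median absolute difference between the pools of a group, on the log2 scale over genes, was 0.219 for M/Z and 0.23 for +/Z at stage 9, and 0.373 for M/Z and 0.374 for +/Z at stage 10.5. A stage position was taken from the 500 genes with the largest stage change in the +/Z pools of 1 replicate number, members left out. It is the part of that change that a library showed, with 0 for the stage 9 +/Z pool of the other number. For a +/Z library the change came from the pools of the other replicate number only. An M/Z library was given the mean over both numbers, so the genotypes were not placed in quite the same way. The M/Z libraries of stage 9 stood at 0.0395 and 0.0383, where 0 is the +/Z pool of that stage. The M/Z libraries of stage 10.5 stood at 0.853 and 0.674, against 0.826 and 0.909 for the +/Z libraries. Among the libraries of stage 10.5, M/Z replicate 2 was thus nearest to stage 9. The wnt11b.L transcript had 32.2 and 37.4 CPM in M/Z at stage 9, against 42.0 and 30.1 CPM in +/Z, and 55.2 and 40.3 CPM in M/Z at stage 10.5, against 72.0 and 60.5 CPM in +/Z. It did not pass the test at either stage (log2 fold change of M/Z over +/Z -0.05 and -0.47, adjusted p 0.92 and 0.197), and since the allele is a small deletion the counts do not show the genotype.

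M/Z embryos had lower vegt.S and eomes.S at stage 9, lower vegt.S and t.L at stage 10.5, and higher tbx6.S at both stages. At stage 9, 3 of the 13 copies passed the test, 1 higher and 2 lower in M/Z, beside 11.9% of all genes tested, 6.01% higher and 5.93% lower. At stage 10.5 it was again 3 copies, 1 higher and 2 lower, beside 13.1% of all genes, 6.68% higher and 6.39% lower. Over both stages 7 copies passed, 1 higher and 6 lower, beside 24% of all genes. The 1 higher copy was tbx6.S in each of these counts, and it entered the tests only through M/Z counts. myf5.L and myf5.S, among the 6 lower over both stages, entered only through +/Z counts. The calls of these copies are not independent support, and the counts that hold them are limited in the same way. Most of the other copies lay below 0 without passing. The median log2 fold change was -0.89 at stage 9 over the 11 copies for which a fold could be given, and -0.64 over the 13 copies at stage 10.5, beside 0.00 and 0.02 over all genes tested. The M/Z libraries lay wholly below the +/Z libraries for 9 copies at stage 9 and 7 copies at stage 10.5, beside 31.8% and 27.1% of all genes. At both stages msgn1.L, myf5.L and myf5.S were among them, which entered only through +/Z counts. At stage 9 msgn1.L had 0 counts in both M/Z pools and 1 count in each +/Z pool, under the floor. The 9 and 7 copies are therefore not an independent comparison with those shares. The stage 9 call was gained by myf5.L, myf5.S, t.L, t.S and vegt.L when either M/Z pool of stage 10.5 was left out (adjusted p 0.0125 to 0.0417) and by t.L also without either +/Z pool of stage 10.5 (0.0327 and 0.036). The stage 10.5 call was gained by eomes.S, myf5.L, myf5.S, myod1.S and t.S without M/Z replicate 1 of that stage (adjusted p 0.00194 to 0.0384). The number of calls over all genes also moved with the library left out. At both stages it was highest without M/Z replicate 1 of stage 10.5. These gains are therefore not a result about the members.

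**Figure D1:**
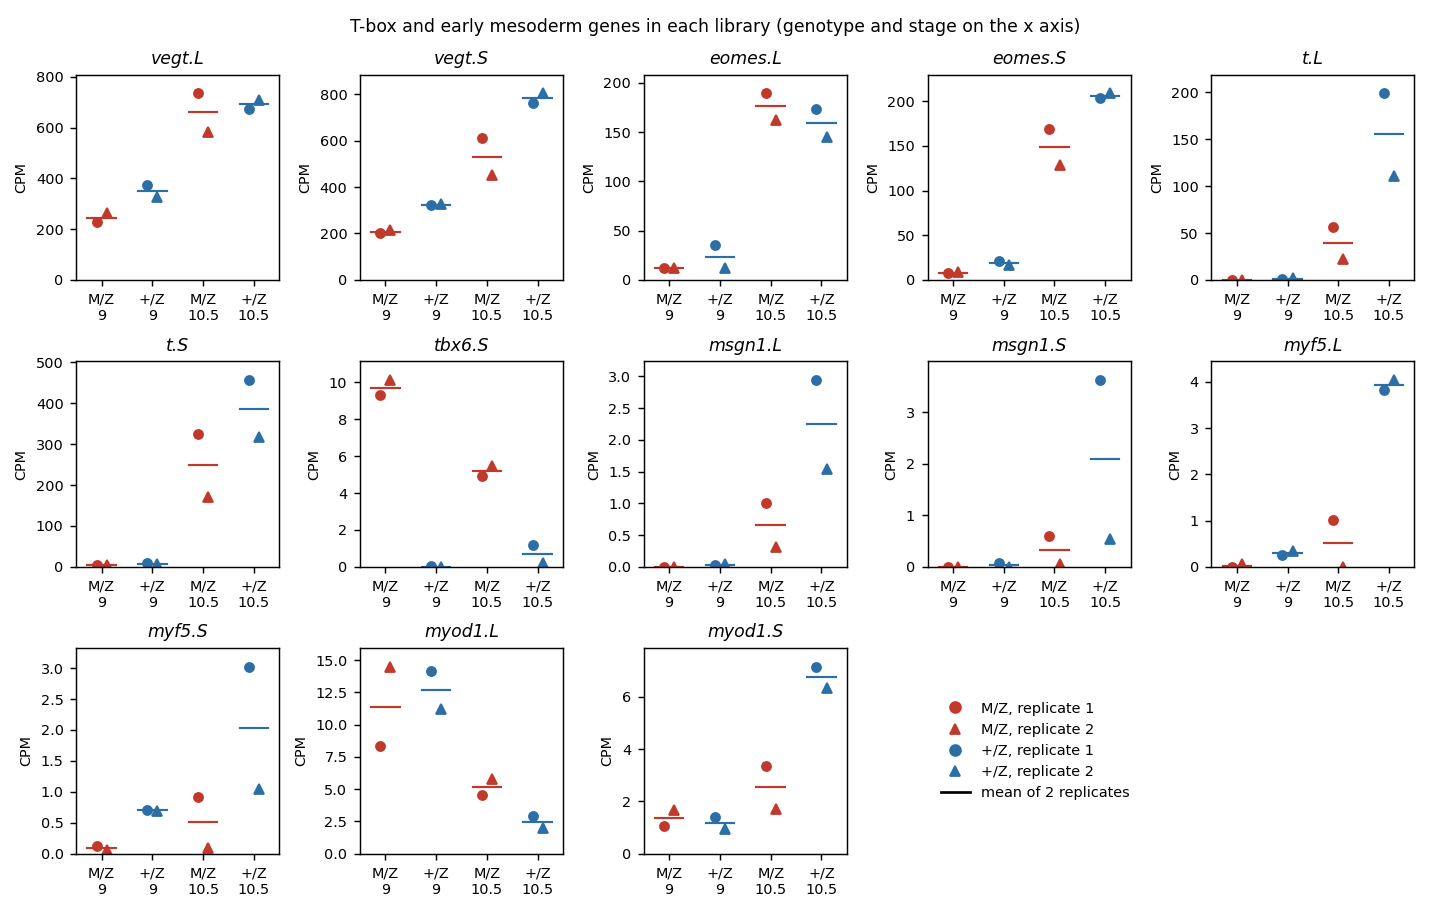
CPM of each of the 13 gene copies in the 8 libraries, M/Z in red and +/Z in blue, with circles for replicate 1, triangles for replicate 2 and a bar at the mean of the 2 replicates; the y axes are linear, start at 0 and differ between panels. Most copies are higher at stage 10.5 and lower in M/Z, whereas tbx6.S is high in M/Z at stage 9 (9.30 and 10.1 CPM) and myod1.L falls with stage.

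The vegt copies, which encode the maternal T-box activator, were abundant in every library. At stage 9 vegt.S had 201 and 213 CPM in M/Z, against 321 and 327 CPM in +/Z, a 1.56-fold lower level (log2 fold change -0.64, standard error 0.16, edgeR adjusted p 0.0294). The M/Z pools lay far below the +/Z pools in relation to the difference within either group. vegt.L had 227 and 263 CPM in M/Z at stage 9, against 373 and 328 CPM in +/Z, also without overlap, but did not pass (-0.52, standard error 0.16, adjusted p 0.0663). At stage 10.5 vegt.S had 610 and 452 CPM in M/Z, against 761 and 804 CPM in +/Z, and passed narrowly (-0.56, standard error 0.16, adjusted p 0.0487). vegt.L did not differ beyond its spread there, with 735 and 585 CPM in M/Z and 675 and 710 CPM in +/Z (-0.07, standard error 0.16, adjusted p 0.807). The stage 9 call of vegt.S was lost when any of the 4 stage 9 libraries was left out (adjusted p 0.136 to 0.2). The stage 10.5 call was lost without any library other than M/Z replicate 1 of stage 10.5 (adjusted p 0.0703 to 0.265). Over both stages vegt.S passed in the full data and in each of the 8 fits with one library left out (-0.60, adjusted p 0.00458). With the copies summed, vegt passed with edgeR at stage 9 (-0.58, standard error 0.15, adjusted p 0.034) but not at stage 10.5 (-0.31, standard error 0.15, adjusted p 0.196).

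eomes, the T-box gene of early mesendoderm, was reduced before gastrulation. eomes.S had 7.63 and 8.50 CPM in M/Z at stage 9, against 20.7 and 16.99 CPM in +/Z, and was 2.34-fold lower (log2 fold change -1.23, standard error 0.19, adjusted p 0.00286). This call held with each of the 8 libraries left out in turn. For eomes.L the M/Z pools were alike, with 11.8 and 11.6 CPM, against 34.9 and 12.52 CPM in +/Z pools that differed widely, and the comparison did not pass (-1.02, standard error 0.37, adjusted p 0.109). Its fold change rested on which +/Z pool was kept: it was -1.58 without +/Z replicate 2 (adjusted p 0.00413) and -0.09 without +/Z replicate 1 (adjusted p 0.899). At stage 10.5 neither copy passed. eomes.S had 169 and 129 CPM in M/Z, against 204 and 209 CPM in +/Z (-0.47, standard error 0.18, adjusted p 0.113; -0.27 without M/Z replicate 2), and eomes.L had 189 and 163 CPM in M/Z, against 173 and 145 CPM in +/Z, with overlapping pools (0.14, standard error 0.36, adjusted p 0.819).

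Brachyury, the pan-mesodermal T-box gene, was low at stage 9, above all on its .L copy. At stage 10.5 t.L had 56.4 and 22.7 CPM in M/Z, against 199 and 111 CPM in +/Z, a 3.92-fold lower level (log2 fold change -1.97 with a standard error of 0.43, adjusted p 0.0177). The groups did not overlap, and replicate 1 was the higher pool in both genotypes. Without M/Z replicate 2 of stage 10.5 the fold change was -1.45 (adjusted p 0.0529), and without +/Z replicate 1 of that stage it was -1.48 (adjusted p 0.0593), so that the call rests on both. t.S, the copy with more counts, had 326 and 171 CPM in M/Z, against 457 and 317 CPM in +/Z, with pools that overlapped (-0.64, standard error 0.30, adjusted p 0.178; -0.24 without M/Z replicate 2 and -1.17 without M/Z replicate 1). At stage 9 t.L had 0.429 and 0.197 CPM in M/Z, against 1.19 and 1.87 CPM in +/Z, and t.S had 4.46 and 3.49 CPM in M/Z, against 8.48 and 6.30 CPM in +/Z. Neither pair of groups overlapped and neither comparison passed (adjusted p 0.0507 for t.L and 0.114 for t.S). With the copies summed, t did not pass with edgeR at stage 9 (-1.06, standard error 0.33, adjusted p 0.0701) or at stage 10.5 (-0.91, standard error 0.31, adjusted p 0.0781). Over both stages both copies passed, t.L at -2.10 (standard error 0.38, adjusted p 0.00374) and t.S at -0.77 (standard error 0.22, adjusted p 0.0312). t2.S (tbxt.2.S in RefSeq), a further brachyury gene that the symbol rule does not take in and that was chosen after its values were seen, had 15.7 and 4.31 CPM in M/Z at stage 10.5, against 45.0 and 27.2 CPM in +/Z (-1.85, standard error 0.49, adjusted p 0.0372). At stage 9 it had 3.00 and 3.26 CPM in M/Z, against 5.54 and 5.57 CPM in +/Z, and did not pass (-0.83, standard error 0.50, adjusted p 0.34). Its stage 10.5 call held only without M/Z replicate 1 or +/Z replicate 2 of that stage and was otherwise lost (adjusted p 0.0579 to 0.108). The t.L call over both stages held with each library left out, whereas that of t.S was lost without either M/Z pool of stage 9, +/Z replicate 1 of either stage, or M/Z replicate 2 of stage 10.5 (adjusted p 0.0527 to 0.129).

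tbx6.S, a T-box gene of ventral and paraxial mesoderm, went the other way. It had 390 and 360 counts in the M/Z pools of stage 9, or 9.30 and 10.1 CPM, against 1 and 0 counts in the +/Z pools. The ratio of the summed counts was 554, with a 95% counting interval of 99.1 to 21901, and the comparison passed (log2 fold change 8.83, standard error 0.88, adjusted p 0.000227; this fitted value depends on the prior count). At stage 10.5 it had 4.93 and 5.49 CPM in M/Z, against 1.18 and 0.227 CPM in +/Z, and was 7.16-fold higher (2.84, standard error 0.55, adjusted p 0.0106). The M/Z pools lay close to each other at both stages, while the +/Z pools of stage 10.5 differed by several-fold. With 1 library left out the fold change of tbx6.S ran from 8.07 to 11.25 at stage 9 and from 2.13 to 4.51 at stage 10.5. At each stage it was lowest without +/Z replicate 2 of that stage and highest without +/Z replicate 1. tbx6.S entered these tests only through its M/Z counts, so its p-values do not stand as independent support for the difference. Of the 3 tested genes next to it on each side in the RefSeq annotation, none passed at either stage, with adjusted p of 0.281 to 0.931 at stage 9 and 0.0841 to 0.95 at stage 10.5. At stage 10.5 tlcd3b.S (1.37, adjusted p 0.0841), coro1a.S (1.32, adjusted p 0.233) and LOC108704236 (0.98, adjusted p 0.147) lay in the same direction as tbx6.S. tbx6r.L, a related T-box gene chosen after its values were seen, had 1.98 and 3.69 CPM in M/Z at stage 9, against 1.68 and 0.84 CPM in +/Z, and did not pass (1.16, standard error 0.66, adjusted p 0.306).

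The paraxial and myogenic factors msgn1 and myf5 were barely detected at stage 9. Both msgn1 copies had 0 counts in the M/Z pools and at most 2 counts in the +/Z pools, so no fold was given. At stage 10.5 msgn1.L had 35 and 10 counts in M/Z, or 1.01 and 0.308 CPM, against 2.94 and 1.54 CPM in +/Z (log2 fold change -1.76, standard error 0.70, adjusted p 0.129). msgn1.S had 0.605 and 0.0616 CPM in M/Z, against 3.63 and 0.544 CPM in +/Z (-2.63, standard error 1.14, adjusted p 0.158). The M/Z pools of msgn1.L lay below the +/Z pools, those of msgn1.S overlapped them, and neither copy passed. myf5.L had 1.01 and 0 CPM in M/Z at stage 10.5, against 3.82 and 4.04 CPM in +/Z (-2.94, standard error 1.05, adjusted p 0.0922). myf5.S had 0.922 and 0.0925 CPM in M/Z, against 3.02 and 1.04 CPM in +/Z (-1.99, standard error 0.87, adjusted p 0.157). For all 4 copies M/Z replicate 2 was the lowest library of the stage, and without it the fold changes were -1.14 for msgn1.L, -1.78 for msgn1.S, -1.94 for myf5.L and -1.13 for myf5.S. Without M/Z replicate 1 they were -2.85, -5.00, -9.91 and -4.40 in the same order. Without +/Z replicate 1 that of msgn1.S was -0.68 and that of myf5.S -1.01. At stage 9 myf5.L had 0 and 2 counts in M/Z, against 8 and 9 counts in +/Z, an 11.5-fold lower level with a counting interval of 2.73 to 103. myf5.S had 5 and 2 counts in M/Z, against 22 and 18 counts in +/Z. The msgn1 and myf5 copies entered these tests only through their +/Z counts. Their p-values therefore do not stand as independent support for a lower level in M/Z. In the edgeR fit of all libraries the myf5 copies passed only over both stages (myf5.L -3.13, standard error 0.96, adjusted p 0.0405; myf5.S -2.45, standard error 0.68, adjusted p 0.0273), and DESeq2 did not call myf5.L (-3.21, adjusted p 0.116). With one library left out, myf5.L passed in 2 of 8 fits and myf5.S in 3 of 8, each losing the call without any of the 4 stage 9 libraries or without +/Z replicate 1 of stage 10.5, and myf5.L also without +/Z replicate 2 of that stage (adjusted p 0.0532 to 0.141).

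The copies of myod1 lay in opposite directions at stage 10.5. At stage 9 they did not differ between genotypes beyond their spread, with 8.32 and 14.5 CPM of myod1.L in M/Z and 14.1 and 11.2 CPM in +/Z (adjusted p 0.812), and 1.07 and 1.66 CPM of myod1.S in M/Z and 1.42 and 0.955 CPM in +/Z (adjusted p 0.831). At stage 10.5 myod1.L had 4.53 and 5.76 CPM in M/Z, against 2.90 and 2.00 CPM in +/Z (1.06, standard error 0.35, adjusted p 0.0738). myod1.S had 3.37 and 1.70 CPM in M/Z, against 7.15 and 6.35 CPM in +/Z (-1.41, standard error 0.41, adjusted p 0.0514). The groups did not overlap for either copy, in opposite directions, and neither passed with edgeR, while both passed with DESeq2 (adjusted p 0.041 and 0.0254). With the copies summed, myod1 did not pass at stage 10.5 (-0.26, standard error 0.30, adjusted p 0.593).

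**Figure D2:**
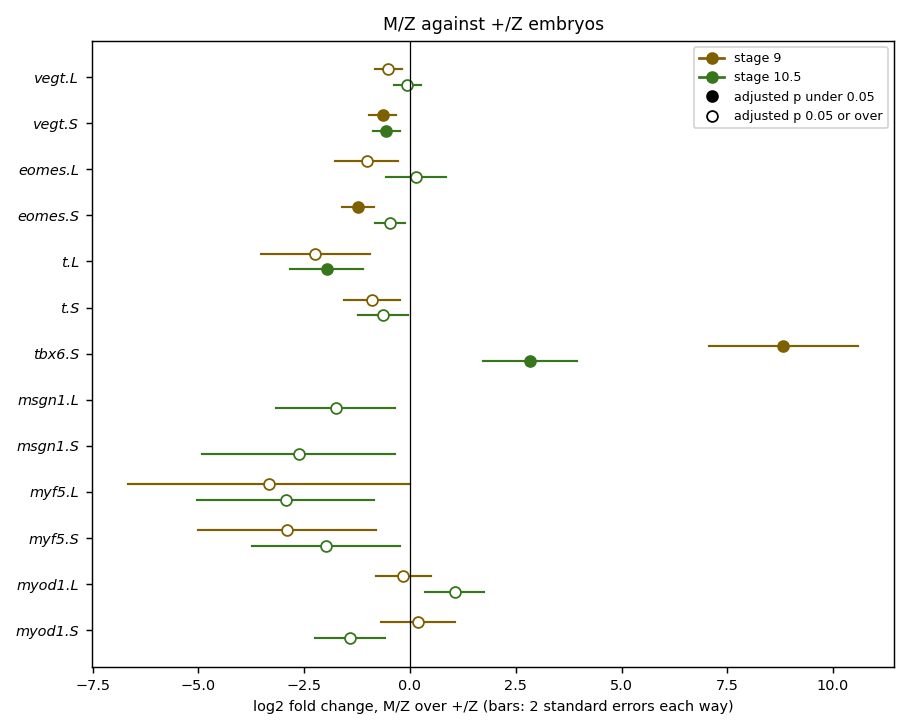
Log2 fold change of M/Z over +/Z for each gene copy at stage 9 (brown) and stage 10.5 (green), with bars of 2 standard errors each way; filled circles passed at an adjusted p under 0.05, and the msgn1 copies have no fold at stage 9. tbx6.S lies to the right at both stages (8.83 and 2.84), and the filled circles to the left are vegt.S at both stages, eomes.S at stage 9 and t.L at stage 10.5.

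Whether the genotype effect itself changed between the stages was tested as an interaction. With edgeR 0 of the 13 copies passed, beside 0.0472% of all genes. DESeq2 called 1 copy, tbx6.S, beside 278 genes in all. The log2 fold change of tbx6.S was lower at stage 10.5 than at stage 9 (interaction -5.99, standard error 1.18, adjusted p 0.136). That eomes.S passed at stage 9 and not at stage 10.5 was therefore not shown to be a difference between stages (0.75, standard error 0.26, adjusted p 0.368), nor was the reverse for t.L (0.26, standard error 0.75, adjusted p 0.926). With one library left out, the interaction of tbx6.S ran from -8.41 to -4.33. tbx6.S had 1 and 0 counts in the +/Z pools of stage 9, so the size of this interaction depends on the prior count. It also entered the tests only through its M/Z counts. The interaction tests of tbx6.S, DESeq2 included, are therefore not independent support for a difference between stages.

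From stage 9 to stage 10.5 both copies of vegt, eomes and t rose in both genotypes, and myod1.L fell in both. In M/Z 8 of the 13 copies passed, 7 higher and 1 lower at stage 10.5, beside 32.3% of all genes (16.7% higher, 15.6% lower). In +/Z 12 copies passed, 11 higher and 1 lower at stage 10.5, beside 46.5% of all genes (23.3% higher, 23.2% lower). Among the 12 were msgn1.L, msgn1.S and myf5.L, which entered the tests only through +/Z counts of stage 10.5. tbx6.S, also among them, entered only through M/Z counts. msgn1.L was among the 8 in M/Z as well. The calls of these copies are not independent support for a rise. The stage change was steep for brachyury: t.S rose 62.3-fold in M/Z (log2 fold change 5.96, standard error 0.37, adjusted p 2.13e-05) and 52.2-fold in +/Z (5.71, standard error 0.37, adjusted p 1.75e-05). t.L rose by 6.93 and 6.67 on the log2 scale, eomes.S by 4.21 and 3.45, eomes.L by 3.91 and 2.74, vegt.S by 1.36 and 1.27, and vegt.L by 1.43 and 0.98, in each case M/Z first. All 6 copies passed in both genotypes and with every library left out. The difference between these rises in M/Z and +/Z is the interaction given above, which did not pass for t.S either (0.26, standard error 0.44, adjusted p 0.86). The median change over the 13 copies was 3.91 in M/Z as fitted, or 2.46 with the msgn1 copies at their lower bounds, and 3.45 in +/Z. The order of the genotypes thus depends on how 0 counts are treated. Over all genes the medians were 0.02 and 0.01.

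Against 0 counts at stage 9 in M/Z, msgn1.L was at least 8.45-fold higher at stage 10.5 and passed (adjusted p 0.0048). msgn1.S was at least 4.28-fold higher and did not pass (adjusted p 0.0549). Without M/Z replicate 2 of stage 10.5 the stage change in M/Z passed for msgn1.S, myf5.L, myf5.S and myod1.S (adjusted p 0.0198, 0.00154, 0.0134 and 0.0365), and without either +/Z pool of stage 10.5 it passed for msgn1.S (0.0429 and 0.0301) and tbx6.S (0.0325 and 0.032). In +/Z the ratio of summed counts was 65.9 for msgn1.L (counting interval 17.8 to 551) and 63.5 for msgn1.S (17.2 to 531), and both passed (adjusted p 0.00167 and 0.0136). The msgn1.S call in +/Z was lost without either +/Z pool of stage 9 or without +/Z replicate 1 of stage 10.5 (adjusted p 0.0515 to 0.105). myf5.L passed in +/Z (3.70, standard error 1.12, adjusted p 0.0219) but not without either +/Z pool of stage 9 (adjusted p 0.124 and 0.101) and not with DESeq2 (3.73, adjusted p 0.127). In M/Z its ratio of 20.2 (counting interval 5.19 to 173) came wholly from replicate 1. tbx6.S had a ratio of 42.7 in +/Z (counting interval 7.19 to 1734; adjusted p 0.00387), but it entered that test through its M/Z counts and did not pass the filter when the +/Z libraries were fitted alone. It lay lower at stage 10.5 in M/Z without passing (-0.90, standard error 0.48, adjusted p 0.177). myod1.L alone fell in both genotypes, by 1.15 on the log2 scale in M/Z (standard error 0.33, adjusted p 0.0256) and by 2.36 in +/Z (standard error 0.35, adjusted p 0.000663). myod1.S rose in +/Z (2.50, standard error 0.44, adjusted p 0.00153). The fall of myod1.L in M/Z did not pass without M/Z replicate 2 of stage 9 (-0.70, adjusted p 0.236) or without M/Z replicate 1 of stage 10.5 (-0.99, adjusted p 0.126).

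**Figure D3:**
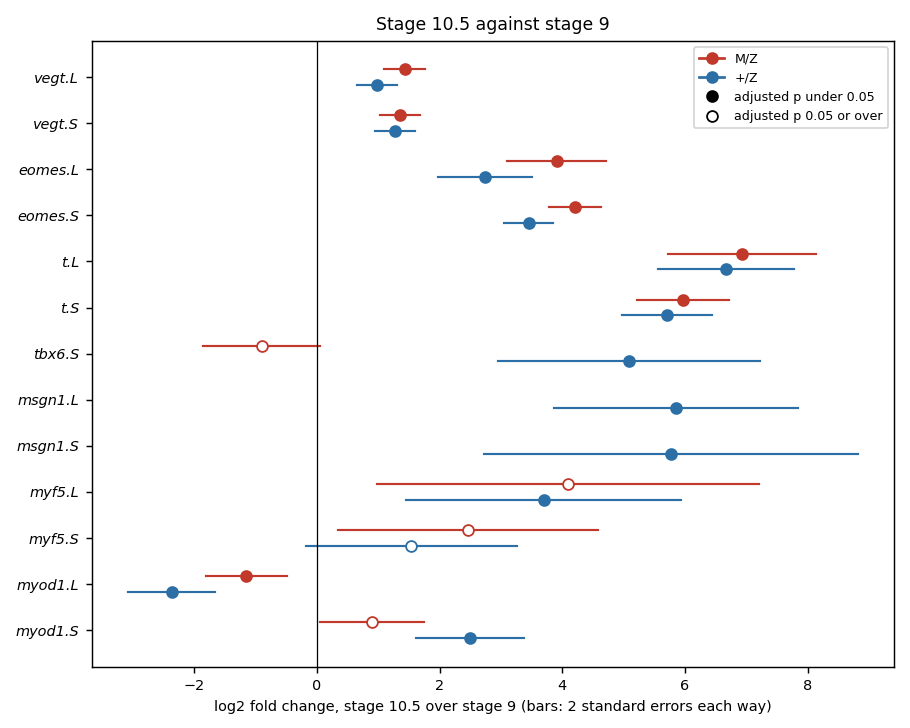
Log2 fold change of stage 10.5 over stage 9 in M/Z (red) and +/Z (blue), with bars of 2 standard errors each way and filled circles for an adjusted p under 0.05; the msgn1 copies have no fitted value in M/Z because they were at 0 counts at stage 9. The t copies lie farthest to the right among those measured in both genotypes (5.71 to 6.93), and tbx6.S lies on opposite sides of 0 in the 2 genotypes.

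The homeologs of a pair were then set against each other, as the share of the counts of a pair that fell on the .L copy, a measure that does not depend on library size. Of 6339 pairs listed, 4882 had at least 10 counts in every library and were tested with limma on log2(L/S). Of the 6 member pairs, 4 were tested. The myod1 pair was counted mainly on .L at stage 9 and, in +/Z, mainly on .S at stage 10.5. Its .L share was 88.6% and 89.7% in M/Z at stage 9, against 90.9% and 92.1% in +/Z, and 57.3% and 77.3% in M/Z at stage 10.5, against 28.9% and 23.9% in +/Z (exact binomial 95% intervals at stage 10.5 of 51.2% to 63.2% and 71.5% to 82.4% in M/Z, and 23.5% to 34.8% and 17.9% to 30.7% in +/Z). The 4 shares of stage 9 lay close together, and at stage 10.5 both M/Z pools kept a higher share than both +/Z pools. At stage 10.5 log2(L/S) was higher in M/Z by 2.57 (standard error 0.48, adjusted p 0.0143), beside 17.8% of all pairs called. It was lower at stage 10.5 than at stage 9 in M/Z (-1.94, adjusted p 0.0348), beside 19.1% of pairs, and in +/Z (-4.89, adjusted p 0.00127), beside 33.5% of pairs. The genotype call at stage 10.5 was lost only without +/Z replicate 2 of that stage (2.38, adjusted p 0.0537), and the fall in M/Z was lost in 5 of 8 fits with one library left out, namely without any stage 9 library or without M/Z replicate 1 of stage 10.5 (adjusted p 0.066 to 0.166). The interaction between genotype and stage, a test added after these values were seen, did not pass (2.95, adjusted p 0.153), beside 0.266% of pairs.

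The vegt pair showed a small shift of the same sign. Its .L share was 54.7% and 56.4% in M/Z at stage 10.5, against 47.0% and 46.9% in +/Z, and log2(L/S) was higher in M/Z by 0.50 (standard error 0.10, adjusted p 0.0153), beside 17.8% of all pairs called. The call was lost without M/Z replicate 2 (0.45, adjusted p 0.0737) or without +/Z replicate 2 of stage 10.5 (0.49, adjusted p 0.0517). At stage 9 the vegt shares were 53.0% and 55.3% in M/Z and 53.8% and 50.1% in +/Z, which overlap (adjusted p 0.416). The limma interaction of vegt, a test also added after the values were seen, did not pass (0.37, standard error 0.14, adjusted p 0.304). A difference between the stages was therefore not shown. Brachyury was counted mainly on its .S copy, with a .L share of 14.8% and 11.7% in M/Z at stage 10.5, against 30.3% and 26.0% in +/Z. The t shares did not overlap between genotypes at either stage, with 8.78% and 5.34% in M/Z at stage 9, against 12.3% and 22.9% in +/Z, but the differences did not pass (-1.42, standard error 0.40, adjusted p 0.0535 at stage 9; -1.37, standard error 0.40, adjusted p 0.0611 at stage 10.5). With 1 count added to each copy in place of 0.5 both passed narrowly with limma (adjusted p 0.0484 and 0.0499). With 5 added, that of stage 10.5 passed (0.0235). These t calls thus depend on that setting. The eomes .L shares were 60.6% and 57.8% in M/Z at stage 9, against 62.8% and 42.4% in +/Z, which overlap (adjusted p 0.519). At stage 10.5 they were 52.8% and 55.9% in M/Z, against 46.0% and 41.0% in +/Z, which do not overlap, and the difference did not pass (0.63, adjusted p 0.268). Without +/Z replicate 1 of stage 9 the stage 9 difference passed for eomes (0.98, adjusted p 0.0482) and t (-1.96, adjusted p 0.0387), and without either +/Z pool of stage 9 the stage 10.5 difference passed for t (adjusted p 0.0405 and 0.0403). At stage 9, 18% of all pairs were called and 0 of the 4 member pairs.

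**Figure D4:**
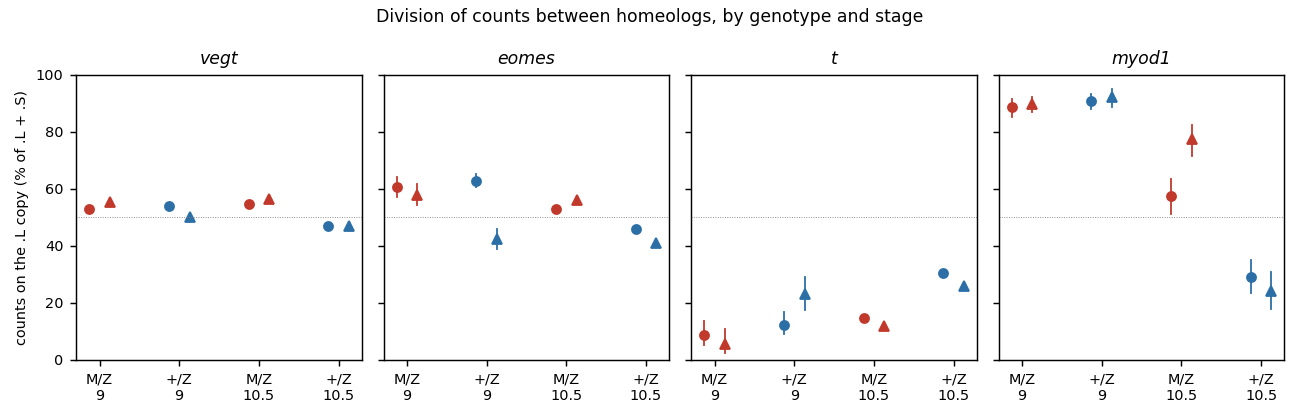
Share of the counts of each pair that fell on the .L copy, in percent, in each library (circles replicate 1, triangles replicate 2; M/Z red, +/Z blue), with exact binomial 95% intervals that cover counting error only and a dotted line at equal shares. The myod1 pair lies between 88.6% and 92.1% at stage 9 and spreads at stage 10.5 to 57.3% and 77.3% in M/Z and 28.9% and 23.9% in +/Z.

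Genes of the pathways that these factors act in were counted in lists chosen by function. Of the copies named below, sp5.S, tbx21.L, tnnt3.L, acta1.L and tpm2.L passed the filter on low counts only through +/Z libraries. mef2c.S passed it only through M/Z libraries. The p-values of these copies, also with one library left out, do not stand as independent support for the difference. Among known targets of VegT in Xenopus, 7 of 27 copies tested fell in M/Z at stage 9 and 0 were higher (median log2 fold change -0.68), and at stage 10.5 4 were lower and 1 higher (median -0.25). Beside each list stand the shares over all genes tested, 5.93% lower and 6.01% higher at stage 9, and 6.39% lower and 6.68% higher at stage 10.5. nodal1, a nodal ligand gene, was lower on both copies: nodal1.L had 0.62 and 0.703 CPM in M/Z at stage 9, against 2.93 and 2.98 CPM in +/Z (-2.16, standard error 0.32, adjusted p 0.00227). nodal1.S had 0 counts in both M/Z pools and was at least 12.49-fold lower than in +/Z (adjusted p 0.00153). gata6.S, which encodes an endodermal GATA factor, had 0.0715 and 0.169 CPM in M/Z at stage 9, against 5.61 and 3.40 CPM in +/Z (-5.23, standard error 0.61, adjusted p 0.000541). The homeobox gene mixer.S was lower at stage 9 (-1.67, adjusted p 0.00128, standard error 0.22) and at stage 10.5, when it had 166 and 118 CPM in M/Z, against 294 and 283 CPM in +/Z (-1.03, standard error 0.20, adjusted p 0.0104). These stage 9 calls of nodal1.L, nodal1.S, gata6.S and mixer.S held with each library left out. At stage 10.5 gata5.S was also lower (-2.03, standard error 0.39, adjusted p 0.01), as was gata4.S (-1.16, standard error 0.30, adjusted p 0.032), and bix1.1.L was higher (0.67, standard error 0.17, adjusted p 0.0325). gata5.S passed in 8 of 8 fits with one library left out, mixer.S in 7 (not without M/Z replicate 2 of that stage, adjusted p 0.053), gata4.S in 4 and bix1.1.L in 1.

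Among FGF, Wnt and posterior mesoderm genes, which act with brachyury, 5 of 28 copies were lower at stage 9 and 0 higher (median -0.56), and 2 were lower and 0 higher at stage 10.5 (median -0.38), beside 5.93% of all genes lower at stage 9 and 6.39% at stage 10.5, to which the stage 10.5 count is close. cdx1.S, a posterior homeobox gene, had 2 counts in all in M/Z at stage 9, against 56 in +/Z, and was 37.9-fold lower (counting interval 10.02 to 321, adjusted p 0.0256). sp5.S was lower at both stages (adjusted p 0.0271 and 0.0296), fgf20.S (-2.13, standard error 0.49, adjusted p 0.02) and the Notch ligand gene dll1.L (-1.01, standard error 0.25, adjusted p 0.0301) at stage 9, and hoxd1.S at stage 10.5 (-2.07, standard error 0.56, adjusted p 0.0385). Each of these passed in 2 to 5 of 8 fits with one library left out. Of the other T-box genes, 2 of 14 copies were lower at each stage and 0 higher, beside 5.93% and 6.39% of all genes lower: tbx21.L, with 0 counts in M/Z at stage 9 and at least 5.46-fold lower there (adjusted p 0.0219), which was again lower at stage 10.5 (adjusted p 0.025), tbx2.L at stage 9 (-1.27, standard error 0.33, adjusted p 0.0351) and tbr1.S at stage 10.5 (-3.39, standard error 0.98, adjusted p 0.0484). The medians of this list were 0.07 and 0.12, and these calls passed in 1 to 4 of 8 fits with one library left out.

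Of 33 tested copies of myogenic partners and paraxial regulators, 2 were lower at stage 9, mef2c.L (-1.60, standard error 0.35, adjusted p 0.0162) and id4.S (-2.09, standard error 0.53, adjusted p 0.0295), a share close to the 5.93% over all genes, and 5 were higher at stage 10.5, beside 6.68% of all genes (medians 0.10 and 0.28). Among the 5 was id2.L, which encodes an inhibitor of helix-loop-helix factors, with 119 and 133 CPM in M/Z, against 62.9 and 62.2 CPM in +/Z (1.01, standard error 0.15, adjusted p 0.00283). mef2a.S (2.46, standard error 0.44, adjusted p 0.00684), tcf4.L (1.70, standard error 0.44, adjusted p 0.034) and mef2c.S, at least 8.04-fold higher against 0 counts in +/Z (adjusted p 0.00504), were also higher. The mef2c copies lay in opposite directions at stage 10.5. mef2c.S had 1.15 and 0.863 CPM in M/Z, whereas mef2c.L had 1.44 and 1.51 CPM in M/Z, against 2.94 and 2.63 CPM in +/Z, and did not pass. A higher level of mef2c over both copies was therefore not shown. id2.L, mef2a.S and mef2c.S passed in 8 of 8 fits with one library left out, tcf4.L in 2, and mef2c.L and id4.S in 4. Of the muscle structural genes, which encode the contractile proteins, 11 of 30 copies, among them both copies of cardiac actin (actc1.L and actc1.S) and of myl1, were at or under the floor in every library, as were myog.L, myog.S and myf6.S. Of the 14 tested, 3 were lower at stage 9, and 2 lower and 1 higher at stage 10.5, beside 5.93% of all genes lower at stage 9, and 6.39% lower and 6.68% higher at stage 10.5. The median of the 14 was 0.08 at stage 9 as fitted and -0.32 with copies at 0 set to their bounds, so that its sign is not settled, and -0.45 at stage 10.5. tnnt3.L (troponin T, counted under LOC100158366) had 0.0953 and 0.0281 CPM in M/Z at stage 9, against 6.64 and 4.43 CPM in +/Z (-6.35, standard error 0.61, adjusted p 0.000171), and it was lower at stage 10.5 as well (-5.61, standard error 0.56, adjusted p 0.000334). acta1.L had 0 counts in M/Z at stage 9 and was at least 34.9-fold lower (adjusted p 0.000264), and lower again at stage 10.5 (-4.75, standard error 0.59, adjusted p 0.00166). tpm2.L was lower at stage 9 (adjusted p 0.027) and tnnc2.L higher at stage 10.5 (2.53, standard error 0.46, adjusted p 0.00729). tpm2.L passed in 4 of 8 fits with one library left out and the other 3 in 8 of 8. A second identifier of tnnt3.L and one of acta1.L (LOC108716753) did not pass at either stage (adjusted p 0.582 and 0.567 at stage 9), and reads may be split between them. Since tnnt3.L, acta1.L and tpm2.L entered the tests only through +/Z, and mef2c.S only through M/Z, their p-values are not independent support. The same limit holds for the counts of lower and higher copies that they enter.

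**Figure D5:**
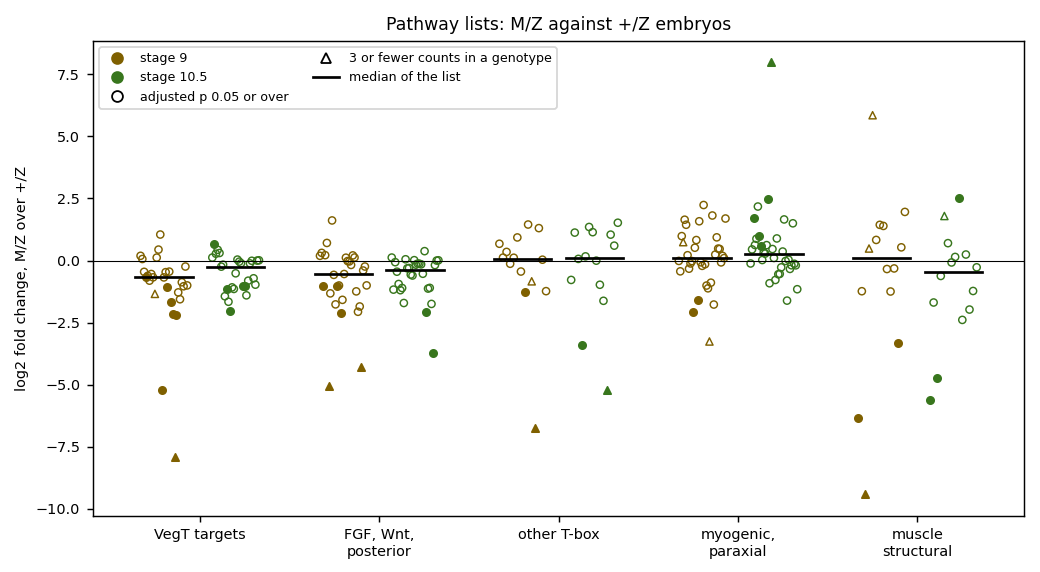
Log2 fold change of M/Z over +/Z for every tested copy of 5 lists at stage 9 (brown) and stage 10.5 (green), with filled symbols for an adjusted p under 0.05 and a black line at the median of the fitted values; triangles mark copies with 3 or fewer counts in a genotype, whose fitted value depends on the prior count. The medians of the VegT targets (-0.68 and -0.25) and of the FGF, Wnt and posterior genes (-0.56 and -0.38) lie below 0, those of the other T-box genes (0.07 and 0.12) near it.

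Markers of other tissues were measured in the same libraries of whole embryos. In such bulk samples fewer cells of a type and less RNA per cell cannot be told apart. The summed level of 12 epidermal copies was 505 and 478 CPM in M/Z at stage 9, against 347 and 343 CPM in +/Z, and 1552 and 1321 CPM in M/Z at stage 10.5, against 1219 and 875 CPM in +/Z. Of these 12 copies, tfap2c.L and grhl1.S were higher at both stages (adjusted p 0.00131 and 0.00532 at stage 9, 0.00852 and 0.0168 at stage 10.5). Beside the calls of this and the following lists stand the shares over all genes tested. They were 5.93% lower and 6.01% higher at stage 9, and 6.39% lower and 6.68% higher at stage 10.5. The 10 endoderm copies summed to 20.5 and 28.8 CPM in M/Z at stage 9, against 59.4 and 35.6 CPM in +/Z, and to 503 and 221 CPM in M/Z at stage 10.5, against 776 and 619 CPM in +/Z. Of 9 tested, gata6.S, which with gata5.S is also in the VegT list, was lower at stage 9, and gata5.S was among those lower at stage 10.5. At stage 9 the list was split, with 4 copies below 0, 4 above and 1 without a fold. Its median log2 fold change there was 0.12 as fitted and -0.38 with the copy at 0 set to its bound, so that its sign is not settled. a2m.L, which was not tested, was at or under the floor throughout. The 11 neural copies summed to 2123 and 2444 CPM in M/Z at stage 9, against 2074 and 2125 CPM in +/Z, and to 2245 and 2034 CPM in M/Z at stage 10.5, against 2512 and 3018 CPM in +/Z. In that list sox11.L and sox11.S were higher at stage 9 (adjusted p 0.00279 and 0.0356), and zic1.L and otx2.S were lower at stage 10.5 (adjusted p 0.0233 and 0.0345). With one library left out, tfap2c.L and sox11.L passed in 8 of 8 fits, grhl1.S in 7, zic1.L in 6, and sox11.S and otx2.S in 4.

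The 24 copies of vegetally localised maternal RNAs, the class vegt itself belongs to in the egg, summed to 1786 and 1773 CPM in M/Z at stage 9, against 2125 and 2367 CPM in +/Z, and to 1005 and 1552 CPM in M/Z at stage 10.5, against 996 and 1224 CPM in +/Z. Of 23 tested, grip2.L was lower at stage 9 (-1.45, standard error 0.37, adjusted p 0.03) and otx1.S higher (3.11, standard error 0.35, adjusted p 0.000448). These counts are near the shares over all genes, 5.93% lower and 6.01% higher. At stage 10.5 4 copies were higher, among them pgat.L (adjusted p 0.00531), bicc1.S (adjusted p 0.0232) and spire1.S (adjusted p 0.024), and 1, spire1.L, was lower (adjusted p 0.0195), beside 6.68% of all genes higher and 6.39% lower. The medians of the list were -0.11 at stage 9 and 0.33 at stage 10.5. With one library left out, otx1.S and pgat.L passed in 8 of 8 fits, spire1.L in 7, bicc1.S and spire1.S in 6, and grip2.L in 4. The part of these tissue markers and of the stage position in the results for the 13 copies was not tested.

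The genes whose log2 levels over the 8 libraries lay nearest to each member were found among 16336 tested genes with a symbol, as a description. The nearest to tbx6.S was bcam.L, at a root mean square distance of 0.311 (Pearson's r 0.994), the next being lpl.S at 0.726. cdx1.S, one of the posterior genes above, was among the 2 nearest to t.L, with a distance of 0.652 (r 0.983), after rgs16.S at 0.565. The nearest to eomes.S were nptx2.S (0.234) and aplnr.S (0.263), the nearest to vegt.S were mrto4.S (0.101) and tubb4a.S (0.105), and the nearest to myod1.L was rapgefl1.L (0.183). chrd.2.L and admp.S were nearest to myf5.L, at 0.594 and 0.793. Ranked by Pearson's r instead, the first genes were nexn.L and tfg.S for t.L, cass4.L and pnhd.S for eomes.S, and foxd4l1.1.S and glod5.L for myf5.L. In that ranking bcam.L stayed among the first for tbx6.S, tubb4a.S for vegt.S and rapgefl1.L for myod1.L. The 8 points fall into 4 groups and share their libraries and depth.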

How the data were processed

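RNA was sequenced from pools of 3 whole embryos. The authors processed raw paired-end reads with the CSBB pipeline 3.0, mapped them to genome 9.2 of X. laevis with Bowtie2, quantified with RSEM 1.3.0 and deposited expected counts per gene. All deposited expected counts were whole numbers. The library kit marks strand, but the annotation and strand setting of the counting are not given in the sources used here, and reads that homeologs or overlapping genes share may be split between them.

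The 8 libraries were fitted in 4 groups with edgeR 4.0.16 in R 4.3.3 (TMM factors, filterByExpr, quasi-likelihood test), with Benjamini-Hochberg adjustment over 25448 genes and a threshold of 0.05. Standard errors came from the fold change and its F statistic. Homeolog ratios were log2((L + 0.5)/(S + 0.5)), tested with limma 3.58.1. Scripts were tested on simulated data. Intervals and floors cover counting error only. The members, lists and tests were chosen with earlier results of these data known. All member copies are named, and from each list at most 4 copies past the threshold per genotype comparison, by smallest adjusted p. The result for 1 endoderm marker is not reported here. RefSeq (assembly 10.1) matched 12362 of 16193 LOC identifiers and gave 3698 of them a symbol. Alternatives were other size factors, filters, DESeq2 1.42.0, a replicate block, fewer libraries in the fit, summed copies, other pseudocounts for the ratios, and leaving out each library.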

Additional observations from a re-analysis of the deposited data

How the results depend on the processing

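Of the values of single member copies and pairs, 557 kept their direction and call under settings other than leaving out a library, 11 were no longer past the threshold, 52 came to pass it and 9 changed sign. With one library left out these numbers were 677, 44, 36 and 27. Of the list genes named, whose alternatives were added after the data were seen, 281 of 297 values kept their call under other settings and 258 of 360 with one library left out, and 0 changed sign. The cause of these changes was not tested, except that fewer genes or libraries enter some fits by construction.

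Without a filter on low counts 9 member copies passed at stage 9, 9 at stage 10.5 and 2 in the interaction, with 5494 genes at stage 10.5 and 915 in the interaction, against 3325 and 12 with it. With at least 10 counts in every library 1894 genes passed at stage 9 (3040 in the full fit) and 6 in the interaction, and 1 member copy at stage 10.5, 3 over both stages and 7 for stage in +/Z. That filter left msgn1.L, msgn1.S, myf5.L, myf5.S, t.L and tbx6.S untested, and the 7 for stage in +/Z were all the copies still tested. The 1 copy at stage 10.5 was myod1.S (adjusted p 0.048), while vegt.S no longer passed there (adjusted p 0.0619). DESeq2 called 6 member copies at stage 9, 5 at stage 10.5 and 1 in the interaction, with 278 genes in the interaction. The count of all genes called is not given here for DESeq2 at either stage, nor for stage 9 without a filter. Those member counts are therefore not a result about the members. Only the libraries compared gave 7130 genes and 8 member copies at stage 9, and 1218 genes at stage 10.5. With the copies of a gene summed, the sign changed for myod1.S at stage 9 (-0.13), eomes.L at stage 10.5 (-0.17), myod1.L at stage 10.5 (-0.26), over both stages (-0.19) and in the interaction (-0.14), and myod1.S for stage in M/Z (-0.74) and in +/Z (-0.60). A pseudocount of 5 gave 23 homeolog pairs in the interaction, against 13, and a t interaction of -0.28.

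Scaling by library totals moved the median of all genes by 0.20 at stage 10.5, 0.14 over both stages, 0.11 in the interaction, -0.20 for stage in M/Z and -0.30 for stage in +/Z. The share of calls that were higher was then 70.5% at stage 10.5 (51.1% with TMM), 66.4% over both stages (50.02%), 37.5% for stage in M/Z (51.6%) and 34.4% for stage in +/Z (50.1%). vegt.L at stage 10.5 changed sign (0.12), vegt.S was no longer past the threshold there (-0.37, adjusted p 0.112), and t.L at stage 9 (adjusted p 0.0481) and myod1.L at stage 10.5 (adjusted p 0.0422) were.

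The replicate numbers do not pair the pools by any label, and replicate differences of the genotypes correlated at -0.015 at stage 9 and -0.009 at stage 10.5. With a replicate block 5 member copies passed at stage 9 and 4 at stage 10.5, with 2916 and 3134 genes, and 6 homeolog pairs passed in the interaction. The block added t.L (adjusted p 0.0195) and t.S (0.0181) at stage 9, msgn1.S (0.049) and t.S (0.0349) at stage 10.5 and msgn1.S for stage in M/Z (0.0115), and lost vegt.S at stage 10.5 (0.0591). With the block crossed between the M/Z groups, whose replicate differences correlated at -0.132, 8524 genes passed for stage in M/Z, against 8219.

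With one library left out, the count of genes past the threshold ran from 1076 to 3762 at stage 9, 1520 to 5227 at stage 10.5, 3418 to 7437 over both stages, 0 to 732 in the interaction, 3332 to 9263 for stage in M/Z and 7625 to 12403 for stage in +/Z. Member copies ran from 2 to 8, 1 to 8, 4 to 9, 0 to 1, 7 to 12 and 10 to 12 in the same order, and homeolog pairs from 276 to 1035 at stage 9, 446 to 975 at stage 10.5, 0 to 30 in the interaction, 189 to 1140 for stage in M/Z and 775 to 1695 for stage in +/Z. Values whose sign changed ranged from -0.60 to 0.19 for myod1.L, -0.15 to 0.52 for myod1.S and -4.14 to 0 for msgn1.S at stage 9, -0.24 to 0.10 for vegt.L at stage 10.5, -0.72 to 0.029 for eomes.L over both stages and -2.90 to 6.97 for myf5.L for stage in M/Z. In the interaction they ranged from -6.58 to 3.29 for myf5.L, -0.54 to 0.96 for t.L, -2.62 to 2.61 for msgn1.S, -1.49 to 1.90 for myf5.S, -0.28 to 0.65 for t.S and -0.14 to 0.29 for vegt.S. For log2(L/S) they ranged from -0.22 to 0.98 for eomes at stage 9, -1.13 to 0.061 for eomes for stage in +/Z, -0.35 to 0.85 for eomes in the interaction and -0.48 to 0.59 for t in the interaction.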
